A study of Rattus norvegicus with 9 samples.

Results

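Fetal rat liver cells that carried the OC.2 antigen were compared with fetal liver cells that lacked it, on 6 of the 9 arrays of the study and across 14497 genes. The OC.2+ group (3 arrays) and the OC.2- group (3 arrays) were assigned by the sample titles, LAP+/OC.2+ and LAP+/OC.2-. Both groups came from livers of F344 rats at embryonic day 19, were released with collagenase and were immunopurified with monoclonal antibodies to leucine aminopeptidase (LAP), a hepatic surface protein, and to OC.2, which the design text calls a "ducal" marker, read here as ductal. Both are named positive for LAP, no genetic change or drug is named for either, and RNA was taken from fresh cells. The other 3 arrays held hepatocytes of F344 rats aged 5 to 6 weeks. They entered here through the shared estimate of the spread, the choice among several probe sets of a gene, the alternative scalings and filters, and as values of 3 genes. The labels contradict each other here: the description field names the OC.2+ samples LAP-OC2+, and one isolation protocol, selecting cells positive for both antigens, is repeated for both fetal groups, so the division rests on the titles. The labels call the 3 preparations of a group biological replicates and do not say how many fetuses or litters stood behind each, so p-values measure the spread between these preparations.

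The liver before birth is a blood-forming organ as well as an epithelial one. Immature hepatocytes, which already make plasma proteins, grow beside islands of red-cell and granulocyte precursors, in contact with sinusoidal endothelium and with stellate and other mesenchymal cells. Hepatocytes hold their shape with keratins and epithelial junctions and secrete through a large endoplasmic reticulum, while blood precursors move with leukocyte integrins and a cortical actin skeleton.

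The fetal arrays agreed closely within a group, with correlations of log2 intensity of 0.991 to 0.992 for OC.2+ and 0.986 to 0.991 for OC.2- cells, and median intensity was 87.7 to 88.9 and 86.5 to 89.7. Over the fetal arrays and all genes the median log2 intensity was 6.69, with 4.96 at the 5th and 9.51 at the 95th percentile. Values near the lower end carry little signal, and folds there are understated. The label of both groups as hepatocytes was set against marker genes. The labels do not say which gene each antibody sees. The aminopeptidase genes Anpep and Lap3 were 2.63-fold and 3.36-fold lower in the OC.2+ cells. All 14 measured hepatocyte markers were lower in the OC.2+ cells, with a summed intensity of 36188 to 39604 against 87478 to 94297. In the other direction, all 12 measured erythroid markers (32849 to 33706 against 12429 to 15109) and 16 of 17 granulocyte markers (25559 to 29731 against 1216 to 1324) were higher. All 7 measured megakaryocyte markers (2776 to 3062 against 1128 to 1183) were higher as well. The erythroid list held 17 genes and the megakaryocyte list 14, and the others on them had no value. Endothelial markers were lower in 13 of 14 cases (1461 to 1564 against 5122 to 6856), and stellate and mesenchymal markers in 14 of 18 (4678 to 5529 against 6791 to 8070). Macrophage markers were lower in 4 of 12 and higher in 0 (1977 to 2371 against 2556 to 3380). Lymphocyte markers were higher in 5 of 13, and their sum (4348 to 4645 against 868 to 926) came mostly from Nkg7, while Cd3e, Ms4a1 and Cd8a were dim on every fetal array. Mast cell and basophil markers were higher in 5 and lower in 4 of 13 (2338 to 2540 against 8030 to 8644, mostly Hdc). Biliary and progenitor markers were higher in 3 and lower in 5 of 14 (1407 to 1441 against 1805 to 1852), with Krt19 and Epcam dim. Of 15 markers of neural crest, muscle, adrenal and pancreas (1326 to 1786 against 1453 to 1505), 3 were higher and 1 was lower, and the count of higher genes was 1 without any OC.2+ array and 0 without OC.2- replicate 2. These marker shifts ran with every comparison described here, and their part in each result was not tested. Fewer cells of a type and less RNA per cell cannot be told apart in such preparations.

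Of the 14497 genes, 5576 (38.5%) had a limma adjusted p under 0.05 between the fetal groups, 2944 of them higher (20.3%) and 2632 lower (18.2%) in the OC.2+ cells. At least 2-fold differences among these were fewer, with 535 genes higher (3.69%) and 961 lower (6.63%). In 6739 genes (46.5%) the arrays of the fetal groups did not overlap. Each gene named here as higher or lower passed the adjusted threshold and had arrays that did not overlap between the groups. The median log2 difference over all genes was 0.04. Counts given below for gene groups are to be read beside the 20.3% higher and 18.2% lower of all genes.

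Among called genes without overlap and outside the lists of blood, plasma protein and cell cycle genes, the 15 highest differences were led by Olfm4, Clec7a and Srgn. Log2 intensity of Olfm4, the secreted glycoprotein olfactomedin 4 of neutrophil granules and gut crypts, was 11.15, 11.14 and 10.90 on the OC.2+ arrays and 5.60, 5.97 and 5.80 on the OC.2- arrays. That is a 38.6-fold (95% interval 32.6 to 45.7, adjusted p = 4.12e-12) difference. The fungal glucan receptor Clec7a (dectin-1) read 10.76, 10.56 and 10.57 on the OC.2+ arrays and 6.04, 5.92 and 6.12 on the OC.2- arrays, 24.3-fold (95% interval 21.2 to 27.8, adjusted p = 2.22e-12) higher. Neither gene had an OC.2- array near any OC.2+ array. Serglycin (Srgn), the proteoglycan core of secretory granules, read 11.95, 11.91 and 11.82 on the OC.2+ arrays and 7.38, 7.37 and 7.32 on the OC.2- arrays, 23.2-fold (95% interval 20.5 to 26.3, adjusted p = 1.76e-12) higher. The serine protease inhibitor Serpinb1a, which blocks neutrophil elastase, was 19.1-fold higher, its relative Serpinb10 12.2-fold higher and annexin Anxa1 13.9-fold higher. The 5-lipoxygenase-activating protein Alox5ap rose 12.3-fold, the monocyte chemokine receptor Ccr2 11.6-fold, the calcium-binding protein Gca (grancalcin) 10.2-fold and the leukocyte sialoglycoprotein Spn (CD43) 9.52-fold. Arhgdib, Ly6c, Coro1a, the secreted phospholipase Pla2g2a and the inhibitory lectin Clec12a followed at 7.45-fold to 8.88-fold. Serpinb and Ly6 genes have close relatives whose transcripts may share probe signal.

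The 15 lowest differences outside those lists were led by Gpr182, Cmbl and Gys2. Gpr182, a chemokine-scavenging receptor of sinusoidal endothelium and one of the endothelial markers, read 5.66, 5.64 and 5.76 on the OC.2+ arrays and 9.84, 9.19 and 9.59 on the OC.2- arrays, 14.5-fold (95% interval 11.4 to 18.3, adjusted p = 7.73e-10) lower. Liver glycogen synthase Gys2 read 7.50, 7.23 and 7.44 on the OC.2+ arrays and 10.92, 10.94 and 10.70 on the OC.2- arrays, a log2 difference of -3.46 ± 0.10 (adjusted p = 6.66e-11). For both genes every OC.2+ array lay far below every OC.2- array. The adult hepatocytes had 9.13 ± 0.08 (SD, n = 3) for Gys2, between the fetal groups. Hepatic lipase Lipc read 7.81, 7.33 and 7.76 on the OC.2+ arrays and 10.93, 11.06 and 10.89 on the OC.2- arrays, a log2 difference of -3.32 ± 0.12 (adjusted p = 2.5e-10). The hydrolase Cmbl fell 11.1-fold, the matrix proteoglycan decorin (Dcn) 10.4-fold, the homocysteine methyltransferase Bhmt 10.4-fold, the imprinted hydrolase-like gene Mest 10.2-fold and the lactonase Rgn 10.1-fold. Aadat of lysine breakdown, the ferritin receptor Timd2, Otc of the urea cycle, Oit3, Tsx, the fatty acid carrier Fabp1 and the arachidonate epoxygenase Cyp2c23 were 9.43-fold to 10.1-fold lower.

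**Figure D1:**
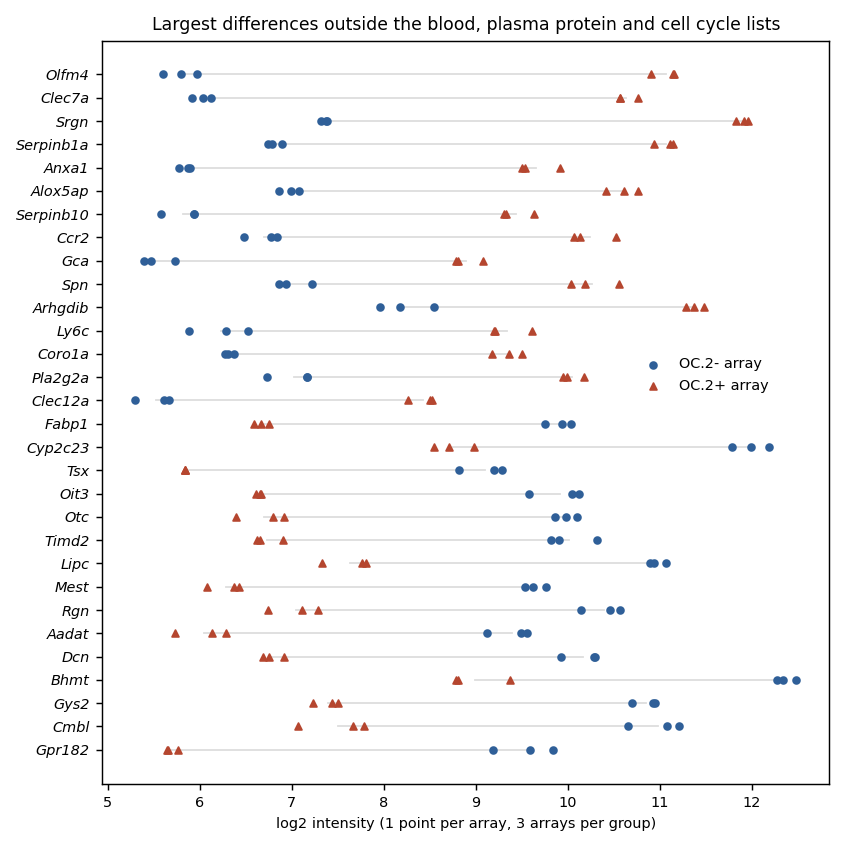
Log2 intensity (horizontal axis) of the 15 genes with the highest and the 15 with the lowest log2 difference outside the blood, plasma protein and cell cycle lists, 1 point for each of the 3 OC.2+ arrays (triangles) and 3 OC.2- arrays (circles), with a grey line between the group means. In all 30 genes the triangles and circles lie apart, by a mean of at least 2.90 log2 units in the upper and 3.24 in the lower set.

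Promoters of members that moved together are shown for the 250 bases before the RefSeq start (GRCr8), because letters matching binding motifs of liver and myeloid regulators lie in them. Capitals mark the match.

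Lipc: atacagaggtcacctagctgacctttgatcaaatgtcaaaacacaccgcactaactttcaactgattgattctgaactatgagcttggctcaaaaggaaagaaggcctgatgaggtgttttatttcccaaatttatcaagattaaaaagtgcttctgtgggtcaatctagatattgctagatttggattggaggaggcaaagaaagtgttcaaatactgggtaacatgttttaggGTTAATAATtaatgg

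Igfbp1: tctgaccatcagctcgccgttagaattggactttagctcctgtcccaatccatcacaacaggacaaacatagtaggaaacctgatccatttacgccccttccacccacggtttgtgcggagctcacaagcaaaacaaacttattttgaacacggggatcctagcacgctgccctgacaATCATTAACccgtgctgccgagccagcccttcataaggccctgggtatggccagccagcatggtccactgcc

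Pdia5: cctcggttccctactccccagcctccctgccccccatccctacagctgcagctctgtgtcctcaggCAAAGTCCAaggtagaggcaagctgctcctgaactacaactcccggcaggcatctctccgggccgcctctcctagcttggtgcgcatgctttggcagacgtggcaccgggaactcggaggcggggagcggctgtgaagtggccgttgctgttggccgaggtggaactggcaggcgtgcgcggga

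Olfm4: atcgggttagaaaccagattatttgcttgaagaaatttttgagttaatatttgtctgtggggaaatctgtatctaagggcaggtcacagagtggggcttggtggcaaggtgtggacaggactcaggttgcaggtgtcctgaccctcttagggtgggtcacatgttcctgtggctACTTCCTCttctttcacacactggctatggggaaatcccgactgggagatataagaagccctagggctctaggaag

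Serpinb1a: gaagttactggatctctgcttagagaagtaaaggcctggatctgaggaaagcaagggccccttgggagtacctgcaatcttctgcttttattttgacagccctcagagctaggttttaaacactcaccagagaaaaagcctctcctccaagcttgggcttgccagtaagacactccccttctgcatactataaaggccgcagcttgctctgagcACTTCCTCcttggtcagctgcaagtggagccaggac

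The stretches are chr8:80516286-80516535 (minus strand) for Lipc, chr14:86261027-86261276 (plus) for Igfbp1, chr11:78777258-78777507 (plus) for Pdia5, chr15:61815981-61816230 (plus) for Olfm4 and chr17:31799196-31799445 (plus) for Serpinb1a. In the window from 250 bases before to 50 after the start, 11963 of the 14497 tested genes had a sequence, among them 441 of the 535 genes at least 2-fold higher and 778 of the 961 at least 2-fold lower. Each motif was searched on both strands. The HNF1 letters GTTAATNAT, where N is any base, capitalised in Lipc and Igfbp1, were found in 16 promoters of the lower genes (2.06%), in 0 of the higher genes and in 82 (0.685%) of all. CAAAGTCCA, the HNF4 letters capitalised in Pdia5, were in 10 lower (1.29%), 0 higher and 47 (0.393%) of all promoters. The PU.1 type ETS letters GAGGAAGT, capitalised in Olfm4 and Serpinb1a, were in 20 higher (4.54%), 16 lower (2.06%) and 299 (2.50%) of all. GATA letters (AGATAAG) were in 3.63% of higher, 2.44% of lower and 2.47% of all promoters, forkhead letters (TGTTTAC) in 2.95%, 3.73% and 2.87%, and C/EBP letters (TTGCNNAA) in 10.9%, 12.1% and 9.96%. The motifs were taken with earlier results of these data known and the promoters printed were picked because they hold a match. A match is a string of letters and not a measured binding site.

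Growth factor receptors of epithelium and vessels were lower more often than higher in the OC.2+ cells. Among the receptor tyrosine kinases of hepatocytes and other epithelia, 10 of 22 were lower and 1 was higher (median -0.10), beside 18.2% and 20.3% of all genes. The epidermal growth factor receptor Egfr read 6.44, 6.57 and 6.51 on the OC.2+ arrays and 8.12, 8.20 and 7.82 on the OC.2- arrays, 2.91-fold (95% interval 2.51 to 3.38, adjusted p = 4.59e-08) lower. Met, the receptor for hepatocyte growth factor, was 2.99-fold and the FGF receptor Fgfr2 2.82-fold lower, whereas the IGF receptor Igf1r was 1.41-fold higher. All 9 measured receptors of vessels and mesenchyme were lower, with the VEGF receptors Kdr at 7.46-fold and Flt1 at 3.80-fold and the angiopoietin receptor Tek at 3.39-fold. The endothelial markers, which include Kdr and Tek, were lower in 13 of 14 cases on the same arrays. The stem cell factor receptor Kit, also a mast cell marker, was 1.93-fold and Flt3 of early blood cells 1.71-fold higher, Mertk, which clears dying cells, was 1.65-fold lower and Csf1r of macrophages differed by -0.11 ± 0.11 on the log2 scale (SE, adjusted p = 0.51).

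Growth factor ligands were lower in 21 of 54 cases and higher in 4. Those higher were Tgfb1 (2.87-fold), which restrains hepatocyte growth, the activin subunit Inhba (2.37-fold), angiopoietin Angpt1 (1.43-fold) and the ERBB ligand Nrg1 (1.21-fold). Bmp2, the endothelial signal for hepcidin, was 7.82-fold lower, from a level of 4.70, 4.67 and 4.54 on the OC.2+ arrays and 7.90, 7.40 and 7.51 on the OC.2- arrays. The OC.2+ values lay near the bottom of the intensity range, so the fold is understated. Mst1, a hepatocyte ligand of the HGF type, fell 3.45-fold, Angptl4, which inhibits lipoprotein lipase, 3.13-fold, Vegfa 2.93-fold and Hgf itself 2.03-fold.

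Cytokine receptors were called in both directions. Of 34 class I and II receptors, 10 were higher and 11 lower. The growth hormone receptor Ghr read 6.67, 6.40 and 6.67 on the OC.2+ arrays and 9.60, 9.76 and 9.35 on the OC.2- arrays, 7.94-fold (95% interval 6.70 to 9.41, adjusted p = 4.19e-10) lower. Il6st, the gp130 chain through which interleukin 6 acts, was 5.96-fold lower and its partner Lifr 4.30-fold lower. The OC.2+ arrays were below the OC.2- arrays in all of these. The interleukin 17 receptor Il17ra was 3.46-fold, the G-CSF receptor Csf3r 3.29-fold and the erythropoietin receptor Epor 1.98-fold higher, Csf3r and Epor being granulocyte and erythroid markers as well. In the TNF family, 4 of 24 were higher, with Tnfrsf14 (3.97-fold) and the ligand Tnfsf13 (3.15-fold) first, and 7 were lower, with the death ligand Tnfsf10 (2.03-fold) and Ltbr (1.96-fold) first.

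Among G protein-coupled receptors, those for chemoattractants were higher in 9 and lower in 2 of 27 cases. Ccr2 read 10.52, 10.13 and 10.06 on the OC.2+ arrays and 6.77, 6.48 and 6.84 on the OC.2- arrays, and the neutrophil chemokine receptor Cxcr2 (4.17-fold) and the complement receptor C5ar1 (2.73-fold) were also higher. Receptors of metabolic hormones and Wnt signals were lower in 9 and higher in 1 of 28. That group also held the endothelial marker Gpr182, its lowest member at a log2 difference of -3.85. Endothelial markers were lower in 13 of 14 cases on the same arrays. The Wnt receptor Fzd4 read 6.50, 6.22 and 6.24 on the OC.2+ arrays and 9.46, 9.30 and 9.30 on the OC.2- arrays, 8.19-fold (95% interval 6.99 to 9.60, adjusted p = 2.32e-10) lower, and Calcrl, a receptor of adrenomedullin and CGRP, was 4.83-fold lower. Receptors for lipids and nucleotides and adhesion receptors were higher in 8 and lower in 8 of 35. Both shares were 22.9%, near the 20.3% and 18.2% of all genes. Leukocyte Adgre5 (CD97) was 2.40-fold higher, Adgrf5 8.39-fold lower and the lysophosphatidate receptor Lpar6 4.88-fold lower.

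Innate immune receptors were higher in 27 and lower in 13 of 84 cases. The group of Fc receptors and immunoglobulin-like proteins contributed 15 higher and 3 lower of 33. It also held Fcnb and Laptm5, which are of neither kind. Ficolin Fcnb read 12.73, 12.47 and 12.37 on the OC.2+ arrays and 7.65, 7.65 and 7.63 on the OC.2- arrays, 29.5-fold (95% interval 25.5 to 34.0, adjusted p = 2.22e-12) higher, the lysosomal regulator Laptm5 was 5.18-fold higher and Fcer1g, the signalling chain shared by Fc receptors, 3.48-fold higher. Fcnb is also a member of the granulocyte markers. Timd2 read 6.90, 6.66 and 6.62 on the OC.2+ arrays and 9.90, 10.32 and 9.82 on the OC.2- arrays, and the inhibitory Fc receptor Fcgr2b, abundant in sinusoidal endothelium and an endothelial marker, was 3.77-fold lower. Among the 33 lectins, 7 were higher (21.2%) and 8 lower (24.2%), beside 20.3% and 18.2% of all genes. Clec7a, Clec12a and Clec5a (1.99-fold) led the higher genes. Asgr2 of the hepatocyte asialoglycoprotein receptor (3.76-fold), Colec10 (2.50-fold) and the mannose receptor Mrc1 (2.46-fold) led the lower ones. Of 18 Toll-like and cytosolic sensors, 2 were lower and 5 higher, with Tlr7 at 1.80-fold and Cd14 at 1.71-fold, and Tlr3, the sensor of double-stranded RNA, was 3.76-fold lower.

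Integrins and their activators were higher in 10 and lower in 5 of 25 cases. The alpha-4 integrin Itga4 read 8.37, 8.53 and 8.58 on the OC.2+ arrays and 6.04, 6.09 and 6.17 on the OC.2- arrays, 5.25-fold (95% interval 4.55 to 6.05, adjusted p = 6.55e-10) higher, kindlin-3 (Fermt3) was 4.54-fold and the leukocyte beta-2 chain Itgb2 3.76-fold higher. In contrast, kindlin-2 (Fermt2) was 4.28-fold and the collagen-binding Itga1 3.69-fold lower. Vinculin (Vcl), which links integrins to actin, differed by -0.08 ± 0.09 (adjusted p = 0.523). Selectins, their ligands and homing receptors were higher in 6 and lower in 11 of 24. Spn, the selectin ligand Selplg (2.38-fold) and the hyaluronan receptor Cd44 (2.37-fold) were higher, and Alcam (4.92-fold), the junctional molecule F11r (4.43-fold) and Vcam1 (3.45-fold) lower.

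Epithelial junction genes were lower far more often than higher. Cadherins and catenins were lower in 14 and higher in 0 of 20 cases (median -0.92), and tight and gap junction genes lower in 20 and higher in 2 of 37 (median -0.30). Claudin Cldn1, a seal of hepatocyte tight junctions, read 8.95, 8.46 and 8.57 on the OC.2+ arrays and 11.69, 11.78 and 11.57 on the OC.2- arrays, 8.11-fold (95% interval 6.69 to 9.83, adjusted p = 1.05e-09) lower. The scaffold Tjp1 (ZO-1) read 6.57, 6.68 and 6.38 on the OC.2+ arrays and 9.35, 9.22 and 9.08 on the OC.2- arrays, 6.37-fold (95% interval 5.52 to 7.35, adjusted p = 2.71e-10) lower. N-cadherin (Cdh2) read 6.55, 6.44 and 6.48 on the OC.2+ arrays and 9.01, 9.12 and 8.87 on the OC.2- arrays, 5.69-fold (95% interval 5.00 to 6.48, adjusted p = 2.07e-10) lower. All OC.2+ arrays were at least 1 log2 unit below the OC.2- arrays for these junction genes. The hepatocyte connexin Gjb1 was 5.06-fold, alpha-catenin Ctnna1 3.09-fold and E-cadherin (Cdh1) 2.24-fold lower. Endothelial Cdh5 was 3.58-fold lower and is also among the endothelial markers. The membrane linker Ezr was 1.40-fold higher.

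Tetraspanins, which organise surface receptors, were higher in 8 and lower in 10 of 24 cases. Leukocyte Cd53 read 10.02, 10.22 and 10.10 on the OC.2+ arrays and 7.80, 7.36 and 7.49 on the OC.2- arrays, 5.90-fold (95% interval 4.76 to 7.32, adjusted p = 1.26e-08) higher, and Cd37 (3.63-fold) and Tspan2 (3.14-fold) were also higher. Tspan7 read 8.88, 8.60 and 8.73 on the OC.2+ arrays and 12.04, 11.83 and 11.81 on the OC.2- arrays, 8.94-fold (95% interval 7.63 to 10.5, adjusted p = 1.89e-10) lower, and Tspan12, a partner of Fzd4, was 4.90-fold lower. No array of one group reached the other in either gene. Among other membrane proteins with 4 passes, 12 of 20 were lower, with Emp1 (6.10-fold) and Cmtm8 (5.46-fold) first, and Cmtm7 (3.34-fold) led the 3 higher. Guidance molecules were lower in 15 and higher in 1 of 50, among them Plxnd1 of vessels (4.56-fold), Sema4g (3.67-fold), the ephrin Efnb2 (2.91-fold), Robo1 (2.25-fold) and Hjv, the BMP co-receptor of iron sensing (2.14-fold). The exception was Sema4a (2.08-fold).

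Of 20 sugar and monocarboxylate carriers, 4 were higher and 4 lower, shares near the 20.3% and 18.2% of all genes. The members furthest apart were 2 glucose transporters. The low-affinity glucose transporter Slc2a2 of hepatocytes read 7.12, 6.96 and 7.11 on the OC.2+ arrays and 9.98, 10.32 and 9.95 on the OC.2- arrays, 8.11-fold (95% interval 6.97 to 9.43, adjusted p = 1.89e-10) lower. The high-affinity Slc2a3 read 8.18, 7.79 and 8.11 on the OC.2+ arrays and 5.85, 5.62 and 5.66 on the OC.2- arrays, 4.97-fold (95% interval 3.93 to 6.29, adjusted p = 7.3e-08) higher. The groups were thus ordered oppositely in these 2 genes, with no overlap in either. Another glucose transporter, Slc2a1, had a log2 difference of -0.84, past the threshold and in the direction of Slc2a2. Among 47 carriers of nucleosides, vitamins and mitochondrial substrates, 9 were higher and 16 lower. Carriers of metals and ions were lower in 20 and higher in 8 of 37, with the phosphate and urate carriers Slc17a3 (7.50-fold) and Slc17a1 (6.39-fold) lowest, the zinc carrier Slc39a5 4.32-fold lower and Slc39a8 2.20-fold higher. The red-cell anion exchanger Slc4a1 (3.51-fold) and the mitochondrial iron importer Slc25a37 (3.29-fold) rose, on arrays where all 12 measured erythroid markers, Slc4a1 among them, were higher. The fatty acid transporter and acyl-CoA ligase Slc27a2 fell 7.74-fold, and the adenine nucleotide carrier Slc25a5 differed by 0.15 ± 0.08 (adjusted p = 0.17).

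Channels and pumps included the calcium-gated potassium channel Kcnn4, which read 9.48, 9.50 and 9.60 on the OC.2+ arrays and 7.43, 7.45 and 7.45 on the OC.2- arrays, 4.25-fold (95% interval 3.68 to 4.90, adjusted p = 1.99e-09) higher. Of 35 potassium and chloride channel genes, 6 were higher and 1 lower, and of 40 calcium and sodium channel and ATPase genes, 11 were higher and 12 lower. The plasma membrane calcium pump Atp2b4 was 3.96-fold and the sodium pump subunit Atp1b2 3.18-fold higher, while the epithelial subunit Atp1b1 was 2.43-fold lower. Endocytic receptors were lower in 16 and higher in 6 of 32 cases. Hyaluronan receptor Lyve1 (8.84-fold), also an endothelial marker, and Igf2r (2.81-fold) were lower, and the oxidised lipoprotein receptor Olr1 (4.18-fold), Cd36 (3.40-fold) and the transferrin receptor Tfrc (3.25-fold), also an erythroid marker, were higher.

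Kinases and adaptors of immune receptors were higher in 30 and lower in 19 of 84 cases. Bruton's kinase Btk read 7.33, 7.04 and 7.24 on the OC.2+ arrays and 5.19, 5.19 and 4.75 on the OC.2- arrays, 4.46-fold (95% interval 3.70 to 5.38, adjusted p = 1.57e-08) higher. The Src family kinase Fgr was 3.91-fold and Jak2, the kinase of the erythropoietin receptor, 2.37-fold higher, while Yes1 was 4.16-fold and Jak1 2.17-fold lower. The adaptors Nckap1l (4.33-fold), Lcp2 (SLP-76, 4.12-fold) and Vav1 (2.31-fold) were higher, and Grb10 (4.37-fold) and Grb14 (3.90-fold), which bind and dampen the insulin receptor, were lower. The leukocyte phosphatase Ptprc (CD45) read 8.16, 8.42 and 8.30 on the OC.2+ arrays and 6.23, 5.96 and 6.27 on the OC.2- arrays, 4.40-fold (95% interval 3.75 to 5.15, adjusted p = 3.86e-09) higher. Its epithelial relatives Ptprk (3.18-fold) and Ptprf (2.89-fold) were lower, and the stress-induced phosphatase Dusp1 differed by -0.04 ± 0.14 (adjusted p = 0.877).

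Regulators of the actin skeleton were higher in 29 and lower in 11 of 51 cases, with a median of 0.37 against 0.04 over all genes. Coronin 1a (Coro1a), which binds cortical actin of leukocytes, read 9.50, 9.36 and 9.18 on the OC.2+ arrays and 6.31, 6.37 and 6.28 on the OC.2- arrays, 8.15-fold (95% interval 6.95 to 9.55, adjusted p = 2.39e-10) higher. The actin bundler Lcp1 (L-plastin) read 10.46, 10.50 and 10.36 on the OC.2+ arrays and 8.14, 7.98 and 7.95 on the OC.2- arrays, 5.33-fold (95% interval 4.72 to 6.03, adjusted p = 1.9e-10) higher, and the leukocyte myosin Myo1f was 3.99-fold higher. Gelsolin (Gsn), which severs actin, read 8.51, 8.35 and 8.51 on the OC.2+ arrays and 11.26, 11.37 and 11.17 on the OC.2- arrays, a log2 difference of -2.81 ± 0.11 (adjusted p = 6.55e-10). The OC.2+ arrays were thus the higher ones for the first 3 of these genes and the lower ones for Gsn. Cytoplasmic actin Actg1 differed by -0.05 ± 0.10 (adjusted p = 0.772) and by 0.34 after cyclic loess. Rac2, the GTPase of leukocyte migration and oxidase activation, read 11.07, 10.96 and 10.81 on the OC.2+ arrays and 8.25, 8.05 and 7.94 on the OC.2- arrays, 7.28-fold (95% interval 6.30 to 8.41, adjusted p = 1.89e-10) higher, while Rac1 differed by -0.04 ± 0.08 (adjusted p = 0.789). The group of exchange factors and GTPase-activating proteins, which also held the dissociation inhibitor Arhgdib, was higher in 16 and lower in 7 of 32. Arhgdib (8.88-fold), Dock8 (2.65-fold) and Dock2 (2.35-fold) were higher and Dlc1 (3.07-fold) and Arhgap29 (2.46-fold) lower.

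In insulin and growth signalling the IGF-binding group, which holds the IGF genes too, was lower in 9 of 10 cases (median -1.07). Igfbp1, a secreted liver protein controlled by insulin, read 9.52, 9.17 and 9.39 on the OC.2+ arrays and 12.36, 12.29 and 12.14 on the OC.2- arrays, 7.49-fold (95% interval 6.12 to 9.17, adjusted p = 2.32e-09) lower. Igfbp7 read 8.02, 7.37 and 7.67 on the OC.2+ arrays and 10.71, 10.62 and 10.54 on the OC.2- arrays, 7.66-fold (95% interval 5.60 to 10.5, adjusted p = 1.1e-07) lower, and Igfbp2 was 4.23-fold lower. All 3 genes had their highest OC.2+ array below their lowest OC.2- array. Insulin receptor substrate Irs1 was 2.16-fold and the forkhead factor Foxo1 3.51-fold lower, while Foxo3 was 2.36-fold, the AMPK subunit Prkag1 2.13-fold and Akt2 1.73-fold higher. Of 23 mTOR and AMPK genes, 7 were higher and 4 lower. Of 23 receptor substrates and PI3K genes, 9 were higher, or 5 without OC.2+ replicate 2 and 4 without OC.2+ replicate 3, and 7 were lower.

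Feedback inhibitors and stress kinases shifted gene by gene. Errfi1, which blocks the EGF receptor, read 8.89, 8.68 and 8.95 on the OC.2+ arrays and 11.78, 11.87 and 11.60 on the OC.2- arrays, 7.50-fold (95% interval 6.43 to 8.75, adjusted p = 2.51e-10) lower. Map3k13 was 3.14-fold lower, while the translation kinase Mknk1 (2.45-fold) and Mapkapk2 (2.03-fold) were higher. Of 36 MAP kinase genes, 10 were higher and 11 lower. Of 31 Ras genes and regulators, 9 were higher and 8 lower. Among Ras activators Rasgrp2 was 3.21-fold higher and Rasgrp3 4.18-fold lower. Of 20 STAT pathway genes, 4 were higher, with Socs2 (2.05-fold) and Stat5a (1.76-fold) first, and 5 lower, with the interleukin 6 feedback inhibitor Socs3 (3.23-fold) first. In the NF-kB group of 27 genes, 8 were higher (29.6%) and 5 lower (18.5%, beside 18.2% of all genes), the inhibitor Nfkbia among the latter at 2.42-fold. The 37 death regulators of the BCL2 and caspase families were near the shares of all genes, with 7 higher (18.9%), 6 lower (16.2%) and 24 not called. Past 2-fold, the lipid droplet protein Cideb (8.18-fold) and the mitophagy receptor Bnip3 (3.52-fold) were lower and inflammatory Casp1 (2.34-fold) higher. For Bnip3 the log2 difference was -1.82 with its brightest probe set and -1.28 with the mean of its probe sets. Of 21 p53 targets and damage genes, 10 were lower, with Perp (6.22-fold) and Plk2 (5.15-fold) first, and 6 higher. The regulator Rgs18 of blood cells (4.60-fold) led 15 higher genes among 42 G proteins and their regulators, of which 7 were lower. Of 42 genes of the cAMP pathway, 5 were higher (3 without OC.2+ replicate 1 or OC.2- replicate 1) and 11 lower. Of 44 protein kinase C, phospholipase and calcium signalling genes, 12 were higher (27.3%) and 10 lower (22.7%), beside 20.3% and 18.2% of all genes. Leukocyte Prkcb was 2.02-fold higher, and Prkca was 1.39-fold and the kinase Prkd3 3.34-fold lower. The cAMP-dependent kinase subunit Prkar2b was 2.85-fold higher, and Creb3l3, a liver factor activated in the endoplasmic reticulum, was lower (log2 difference -2.00).

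Transcription factors were called in both directions. Of 277 factors outside the nuclear receptors, 69 were higher and 81 lower. Bcl11a, a repressor of fetal globin and a lymphoid factor, read 10.04, 9.94 and 10.30 on the OC.2+ arrays and 7.39, 7.48 and 7.55 on the OC.2- arrays, 6.14-fold (95% interval 5.28 to 7.14, adjusted p = 4.98e-10) higher. Ikaros (Ikzf1) read 8.50, 8.33 and 8.29 on the OC.2+ arrays and 6.01, 6.01 and 5.88 on the OC.2- arrays, 5.29-fold (95% interval 4.55 to 6.14, adjusted p = 8.81e-10) higher. The OC.2+ arrays were the higher ones throughout. Gfi1b (5.13-fold), Runx1 (3.57-fold), the homeobox protein Hopx (3.51-fold), Nfe2 of platelets and red cells (3.41-fold), Runx3 (2.87-fold), the myeloid factor Spi1 (PU.1, 2.80-fold) and Tal1 (2.75-fold) were also higher. Gata1 (4.21-fold) and Nfe2 are also erythroid and megakaryocyte markers.

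Nuclear receptors were lower in 15 and higher in 2 of 38 cases. Hnf4a, a central regulator of hepatocyte genes and one of the hepatocyte markers, read 7.29, 7.17 and 7.26 on the OC.2+ arrays and 9.84, 10.02 and 9.67 on the OC.2- arrays, 6.06-fold (95% interval 5.24 to 7.01, adjusted p = 3.63e-10) lower, and in adult hepatocytes it stood at 10.98 ± 0.10 (SD, n = 3). The fatty acid sensor Ppara was 6.15-fold and Nr5a2 of bile acid synthesis 4.51-fold lower, while the glucocorticoid receptor Nr3c1 differed by -0.22 ± 0.10 (adjusted p = 0.108) and by -0.31, past the threshold, without OC.2- replicate 3. Among other factors the clock repressor Bhlhe40 (5.75-fold), Nfib (5.15-fold), Nfia (4.38-fold), the hepatoblast factor Prox1 (4.04-fold), Irf1 (3.92-fold), Epas1 (3.75-fold), Klf12 (3.77-fold), Gata4 (3.58-fold) and Ets1 (2.84-fold) were lower. Snai2, a factor of mesenchyme, read 6.59, 6.59 and 6.54 on the OC.2+ arrays and 8.44, 8.63 and 8.18 on the OC.2- arrays, 3.58-fold (95% interval 1.99 to 6.45, adjusted p = 0.00186) lower, with no overlap between the fetal groups. The adult arrays, which share the estimate of spread, varied more, at 8.80 ± 1.14 (SD, n = 3). Coregulators were higher in 11 and lower in 6 of 25, with Cited4 3.36-fold higher and Ppargc1a, which drives gluconeogenesis and mitochondrial growth, 3.54-fold lower.

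**Figure D2:**
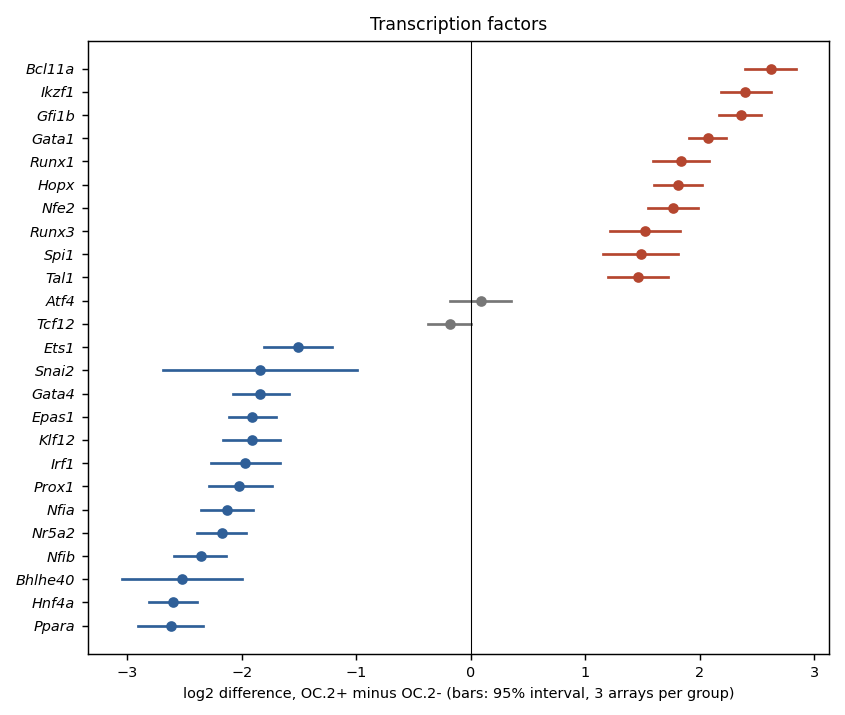
Log2 difference, OC.2+ minus OC.2- (horizontal axis), of 25 transcription factors, with the 95% interval of the limma fit as a bar and 3 arrays per group. The factors were picked with their values known, mostly from the largest differences, so their split does not describe the family. Among 277 factors 69 were higher and 81 lower, and among 38 nuclear receptors 2 and 15. The 10 factors at the top, from Bcl11a to Tal1, have intervals above 0 and the 13 from Ets1 to Ppara below 0. Those of Atf4 and Tcf12 include 0 (Tcf12 passed the threshold without OC.2- replicate 3, at -0.24).

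Genes of splicing, ribosome assembly and translation were higher far more often than lower, by less than 2-fold in most cases. Splicing factors of the SR, hnRNP and spliceosome groups were higher in 52 and lower in 0 of 64 cases (median 0.50), of which 1 passed 2-fold. That gene was the core spliceosomal protein Snrpd1, which read 9.55, 9.81 and 10.02 on the OC.2+ arrays and 8.75, 8.61 and 8.75 on the OC.2- arrays, 2.12-fold (95% interval 1.61 to 2.79, adjusted p = 0.000301) higher. Nucleolar and polymerase I genes were higher in 40 and lower in 1 of 49 (median 0.44), with Pa2g4 at 2.35-fold and nucleophosmin Npm1 at 1.92-fold. Translation factors were higher in 33 and lower in 0 of 43 (median 0.43), among them the haem-regulated kinase Eif2ak1 (2.00-fold) and Pabpc4 (2.03-fold). Elongation factor Eef1a1, near the top of the intensity range, differed by 0.18 ± 0.08 (adjusted p = 0.0752). Aminoacyl-tRNA synthetases were higher in 15 and lower in 1 of 29, with Vars1 at 2.32-fold and Qars1 at 2.28-fold. All 4 medians stayed above 0 under each scaling tried, while the median of all genes was 0.060 after median centring and -0.005 after cyclic loess.

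RNA-binding proteins of restricted tissues or of mRNA stability were higher in 18 and lower in 13 of 45 cases. The apolipoprotein B editing factor A1cf read 7.22, 6.97 and 7.22 on the OC.2+ arrays and 9.92, 10.04 and 9.81 on the OC.2- arrays, 6.90-fold (95% interval 5.98 to 7.97, adjusted p = 1.99e-10) lower. The epithelial splicing factor Esrp2 was 5.52-fold lower. Of the paired mRNA decay factors, Zfp36l1 was 5.17-fold lower and Zfp36l2 2.88-fold higher. Rbm38, a p53 target active in red-cell precursors, was 2.96-fold and Celf2 2.74-fold higher, and Qki differed by -0.09 ± 0.08 (adjusted p = 0.459).

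Chromatin genes were higher in 58 and lower in 7 of 108 cases. Uhrf1, which recruits maintenance DNA methylation at replication, was 3.08-fold, the histone acetyltransferase Hat1 2.23-fold, the NuRD subunit Mta2 2.10-fold, the Polycomb methyltransferase Ezh2 2.06-fold and the remodeller Smarca5 2.01-fold higher. Rbbp7, a histone-binding subunit of several complexes, read 9.39, 9.40 and 9.40 on the OC.2+ arrays and 10.59, 10.97 and 10.57 on the OC.2- arrays, 2.48-fold (95% interval 2.11 to 2.93, adjusted p = 5.18e-07) lower. It was the only remodelling gene of 29 lower, beside 18 higher. Of 49 histone methylation genes, 25 were higher and 4 lower (2 lower without OC.2+ replicate 2 or OC.2- replicate 1).

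Genes of the secretory pathway were lower more often than higher. Genes of translocation into the endoplasmic reticulum and of N-glycosylation were lower in 32 and higher in 2 of 49 cases (median -0.46), and folding and vitamin K genes lower in 24 and higher in 3 of 34 (median -0.61). Vkorc1, the vitamin K reductase that clotting factors need, read 10.51, 9.89 and 10.34 on the OC.2+ arrays and 12.72, 12.76 and 12.64 on the OC.2- arrays, 5.51-fold (95% interval 4.53 to 6.70, adjusted p = 7.33e-09) lower. The disulfide isomerase Pdia5 read 7.68, 7.46 and 7.53 on the OC.2+ arrays and 9.98, 10.20 and 9.78 on the OC.2- arrays, 5.39-fold (95% interval 4.57 to 6.35, adjusted p = 1.79e-09) lower. The cargo receptor Lman1, which carries clotting factors, read 8.57, 8.33 and 8.50 on the OC.2+ arrays and 10.71, 10.84 and 10.54 on the OC.2- arrays, 4.70-fold (95% interval 4.07 to 5.43, adjusted p = 1.26e-09) lower. In each of them the OC.2+ arrays were all below the OC.2- arrays. The proprotein convertase Furin was 3.74-fold and the translocon subunit Sec61a1 2.72-fold lower, whereas the chaperone Canx differed by 0.10 ± 0.07 (adjusted p = 0.34). Canx passed the threshold after quantile scaling, at 0.26, and after cyclic loess, at 0.48. Vesicle coat and Rab genes were lower in 40 and higher in 14 of 78, and the higher ones were led by Rab27a (3.62-fold) and Stxbp2 (2.55-fold) of granule release. Of 22 stress and degradation genes, 10 were lower, including Herpud1 (3.19-fold) and the cysteine-making enzyme Cth (8.41-fold), and asparagine synthetase Asns was 3.32-fold higher.

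Glycosyltransferases were higher in 17 (25.8%) and lower in 11 (16.7%) of 66, beside 20.3% and 18.2% of all genes. B4galt6 (3.53-fold), Fut2 (3.21-fold) and the sialyltransferase St3gal2 (3.07-fold) were higher, and St3gal6 (3.90-fold) and St6gal1, which caps plasma glycoproteins (4.44-fold), were lower. Proteoglycan genes were lower in 22 and higher in 7 of 47. The heparan sulphate proteins Gpc3, of fetal hepatocytes, and Sdc2 were 8.81-fold and 8.32-fold lower, against Srgn and the chondroitin sulphotransferase Chst12 (3.82-fold) higher. Dcn is also a stellate and mesenchymal marker.

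Lysosomal hydrolases were lower in 31 and higher in 9 of 55 (median -0.32). Cathepsin L (Ctsl) read 6.65, 6.17 and 6.51 on the OC.2+ arrays and 9.41, 9.63 and 9.22 on the OC.2- arrays, 7.87-fold (95% interval 6.50 to 9.52, adjusted p = 1.15e-09) lower, and cathepsin E (Ctse) read 10.30, 10.21 and 10.17 on the OC.2+ arrays and 7.98, 7.86 and 8.06 on the OC.2- arrays, 4.78-fold (95% interval 4.10 to 5.57, adjusted p = 1.93e-09) higher. These proteases were ordered oppositely. Autophagy genes were higher in 9 and lower in 10 of 32, with the lysosomal protein Dram2 (2.54-fold) and the cargo receptor Nbr1 (2.39-fold) lower and the conjugating enzyme Atg3 (1.55-fold) higher. Proteasome genes were higher in 23 and lower in 1 of 42 (median 0.28), with the immunoproteasome subunit Psmb9 at 1.99-fold and none at least 2-fold apart. Ubiquitin-conjugating enzymes and ligases were higher in 32 and lower in 18 of 92, with Rnf123 2.80-fold higher and Rnf125 4.19-fold lower. Chaperones were higher in 25 and lower in 16 of 62, with Hsp90aa1 2.00-fold higher and the small heat shock protein Hspb8 3.35-fold lower.

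Mitochondrial ribosome and expression genes were higher in 7 and lower in 13 of 75 cases, beside 20.3% and 18.2% of all genes, and none passed 2-fold. The ribosomal proteins Mrpl36 (1.72-fold) and Mrpl23 (1.56-fold) were the furthest apart in each direction. These counts rested on single arrays, with 3 higher without OC.2+ replicate 1, OC.2+ replicate 3 or OC.2- replicate 3, and 8 lower without OC.2- replicate 2 and 20 without OC.2- replicate 3. Import and dynamics genes were higher in 8 (21.6%) and lower in 5 (13.5%) of 37, not far from the shares of all genes. Only 3 were lower without OC.2+ replicate 2, OC.2- replicate 1 or OC.2- replicate 2.

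In central metabolism, pyruvate and citrate cycle genes were lower in 26 and higher in 8 of 42 cases (median -0.60). Cytosolic isocitrate dehydrogenase Idh1 read 8.98, 8.57 and 8.69 on the OC.2+ arrays and 11.60, 11.74 and 11.42 on the OC.2- arrays, 7.15-fold (95% interval 6.01 to 8.50, adjusted p = 7.64e-10) lower. Glutamate dehydrogenase Glud1 was 5.44-fold and the pyruvate dehydrogenase kinase Pdk4 4.18-fold lower, while Pdk3 was 3.51-fold, the malic enzyme Me2 2.60-fold and citrate synthase Cs 2.47-fold higher. In the pentose phosphate and redox group 17 of 52 were higher and 23 lower. Rpia, which makes ribose phosphate, was 3.12-fold and the red-cell peroxidase Prdx2 2.88-fold higher, and the selenium carrier Selenop 6.67-fold lower.

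Of 53 purine and pyrimidine genes, 27 were higher (50.9%) and 12 lower (22.6%), beside 20.3% and 18.2% of all genes. Deoxycytidine kinase Dck, of the salvage pathway, read 9.59, 9.76 and 9.86 on the OC.2+ arrays and 7.73, 7.65 and 7.77 on the OC.2- arrays, 4.07-fold (95% interval 3.46 to 4.78, adjusted p = 7.65e-09) higher, and the kinase Uck2 (3.06-fold) and AMP deaminase Ampd3 (3.50-fold) were higher. Urate oxidase Uox read 7.37, 7.41 and 7.39 on the OC.2+ arrays and 10.07, 10.30 and 9.84 on the OC.2- arrays, 6.41-fold (95% interval 5.45 to 7.55, adjusted p = 7.29e-10) lower, and Dpys (5.72-fold) and Upb1 (4.12-fold) of pyrimidine breakdown were lower. No arrays overlapped in these genes. Folate, serine and polyamine genes were lower in 20 and higher in 9 of 36, with the glycine enzymes Gnmt (6.20-fold) and Gldc (4.92-fold) lower and mitochondrial Mthfd2 (2.03-fold) and Ggh (3.29-fold) higher.

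The leukotriene synthesis genes Alox5ap, Alox5 and Lta4h were higher. The activating protein Alox5ap read 10.76, 10.61 and 10.41 on the OC.2+ arrays and 7.08, 6.86 and 6.99 on the OC.2- arrays, 12.3-fold (95% interval 10.2 to 14.8, adjusted p = 2.33e-10) higher. The lipoxygenase Alox5 was 4.24-fold and the leukotriene A4 hydrolase Lta4h 3.39-fold higher, among 7 higher and 5 lower of 21 eicosanoid genes. The epoxide hydrolases Ephx1 (8.68-fold) and Ephx2 (2.98-fold) were lower. Genes of lipid droplets and lipoprotein assembly were lower in 31 and higher in 2 of 53 (median -0.53). Mttp, which loads lipid onto apolipoprotein B, read 7.30, 6.98 and 7.34 on the OC.2+ arrays and 10.02, 10.20 and 9.88 on the OC.2- arrays, 7.10-fold (95% interval 5.96 to 8.44, adjusted p = 7.89e-10) lower. Phospholipid and sphingolipid genes were higher in 15 and lower in 24 of 56. The ceramidase Acer2 was 9.06-fold lower and the secreted phospholipase Pla2g7 3.10-fold higher.

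Retinoid genes were lower in 15 and higher in 0 of 31 cases, with the binding protein Rbp2 at 9.33-fold and the alcohol dehydrogenase Adh1c at 8.11-fold lower. Peroxisomal genes were lower in 32 and higher in 4 of 47 (median -0.55). Acox2 of bile acid side-chain oxidation read 6.87, 6.53 and 6.67 on the OC.2+ arrays and 9.74, 9.84 and 9.55 on the OC.2- arrays, 8.08-fold (95% interval 6.92 to 9.44, adjusted p = 2.04e-10) lower. Far1, which makes fatty alcohols for ether lipids, read 8.15, 8.22 and 8.18 on the OC.2+ arrays and 6.30, 6.30 and 6.30 on the OC.2- arrays, 3.69-fold (95% interval 3.28 to 4.15, adjusted p = 8.97e-10) higher. The other higher members were Agps (1.68-fold) and Gnpat (1.22-fold), the enzymes that start ether lipid synthesis, and the carnitine acetyltransferase Crat (1.20-fold), which missed the threshold without OC.2+ replicate 1, 2 or 3 or OC.2- replicate 3 (log2 difference 0.19 to 0.26). These higher members were singled out after their values were seen.

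Of 27 keratins and other filaments, 2 were higher, 5 lower (18.5%, beside 18.2% of all genes) and 20 not called, with a median of 0.00. Keratins Krt18 and Krt8, the filament pair of hepatocytes and 2 of the hepatocyte markers, were 7.65-fold and 6.66-fold lower, whereas vimentin (Vim) differed by 0.24 ± 0.13 (adjusted p = 0.195). Of 44 tubulins and septins, 14 were higher, with Tuba4a at 3.27-fold, and 11 lower, with Tubb6 at 3.63-fold. Annexins and S100 proteins divided equally, 8 higher and 8 lower of 25. The granulocyte markers S100a8 (18.6-fold) and S100a9 (39.5-fold) and Anxa1 were higher and Anxa2 (2.35-fold) and Anxa6 (2.28-fold) lower. Matrix genes were lower in 25 and higher in 2 of 48. Sparc, a calcium-binding matrix protein, read 8.06, 7.48 and 7.62 on the OC.2+ arrays and 10.97, 10.63 and 10.62 on the OC.2- arrays, 8.10-fold (95% interval 6.37 to 10.3, adjusted p = 7.39e-09) lower, vitronectin (Vtn) was 7.08-fold lower and thrombospondin Thbs1 2.77-fold higher. Proteases and their inhibitors were lower in 22 and higher in 8 of 57, with Adamts1 (7.22-fold) and Timp1 (5.55-fold) lower and the stefin Stfa3 (14.3-fold), which is on the granulocyte list left out of the 15 highest differences and whose relatives may share signal, and leukocyte cystatin Cst7 (3.80-fold) higher. Of 23 hypoxia targets, 3 were higher, with the glycolytic regulator Pfkfb4 at 2.42-fold, and 8 lower, with the carbonic anhydrase Car12 at 5.64-fold. Of 13 clock genes, 3 were higher and 3 lower (23.1% each, near the 20.3% and 18.2% of all genes). The core clock genes Clock (2.16-fold) and Bmal1 (2.10-fold) were lower.

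**Figure D3:**
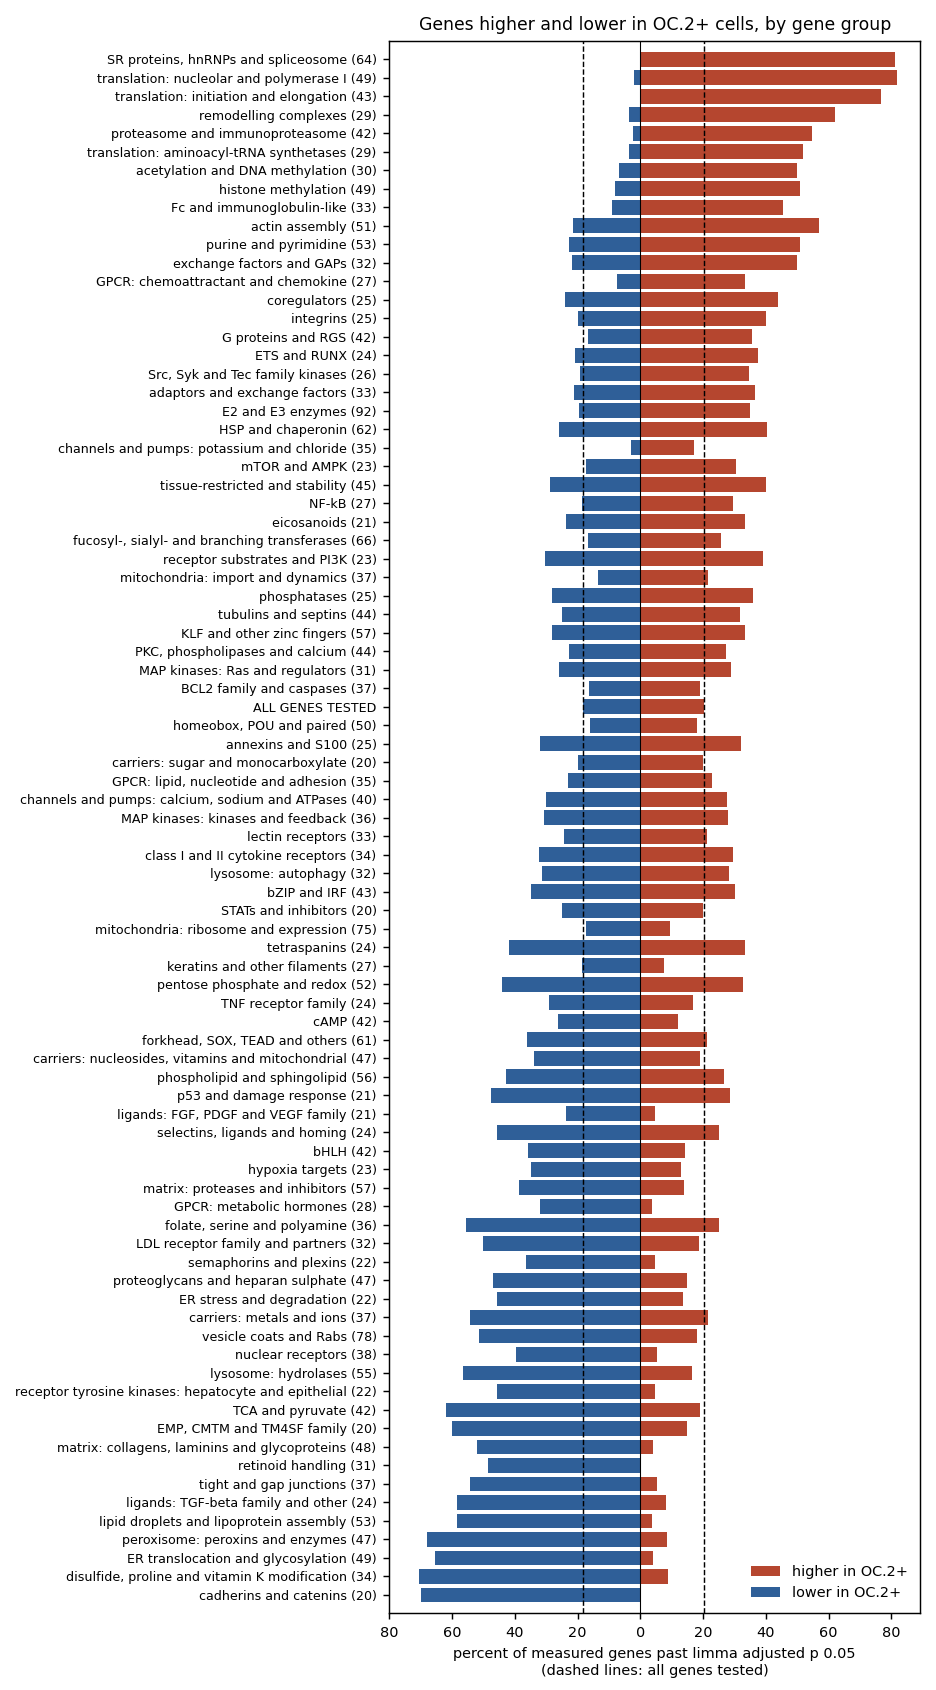
Percent of the measured genes of each gene group (number measured in brackets, groups of at least 20) that passed limma adjusted p 0.05 as higher (bars to the right) or lower (bars to the left) in the OC.2+ cells, ordered by the difference, with dashed lines at 20.3% and 18.2% for all genes tested. Splicing, nucleolar and translation groups stand at the top with bars to the right, and cadherin, secretory pathway, peroxisomal and lipoprotein groups at the bottom with bars to the left.

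Pairs of genes were set side by side, the first of each pair being the form of liver or of most tissues. The second was in most pairs a relative from the same family or step. Zbtb20, set beside Ikzf1 and counted below as opposite, is not of the Ikaros family, and Cbfb is a binding partner of Runx1. Of 60 pairs listed, 48 had both genes measured by a probe set of their own, and the others were not analysed here. In 13 pairs the first gene was lower and the second higher, in 10 both were lower, in 2 both were higher and in 23 at least 1 was not called. Counted once each, 26 of the 45 first genes were lower and 2 higher, and 29 of the 48 second genes were higher and 13 lower. The pairs were chosen with earlier results of these data known, so the counts are a description. Among methionine adenosyltransferases Mat1a, the adult liver form, was 3.99-fold lower and Mat2a, the form of dividing cells, 1.80-fold higher. Opposite directions were also seen for the plastins Pls1 (2.53-fold lower) and Lcp1, for Wasl (1.94-fold lower) and Was (3.26-fold higher) of the WASP family, and for the GATA factors Gata6 (1.66-fold lower) and Gata2 (1.98-fold higher). In other pairs only the leukocyte form was called, as with the phosphatases Ptpn6 (2.11-fold higher) and Ptpn11 (0.15 ± 0.09, adjusted p = 0.221) and the phospholipases Plcg2 (2.05-fold higher) and Plcg1 (0.11 ± 0.10, adjusted p = 0.503). Pyruvate kinase was higher in both forms, Pklr (1.65-fold) of liver and red cells and Pkm (2.58-fold). For glycogen, Gys2 fell while muscle Gys1 differed by 0.04 ± 0.10 (adjusted p = 0.829).

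**Figure D4:**
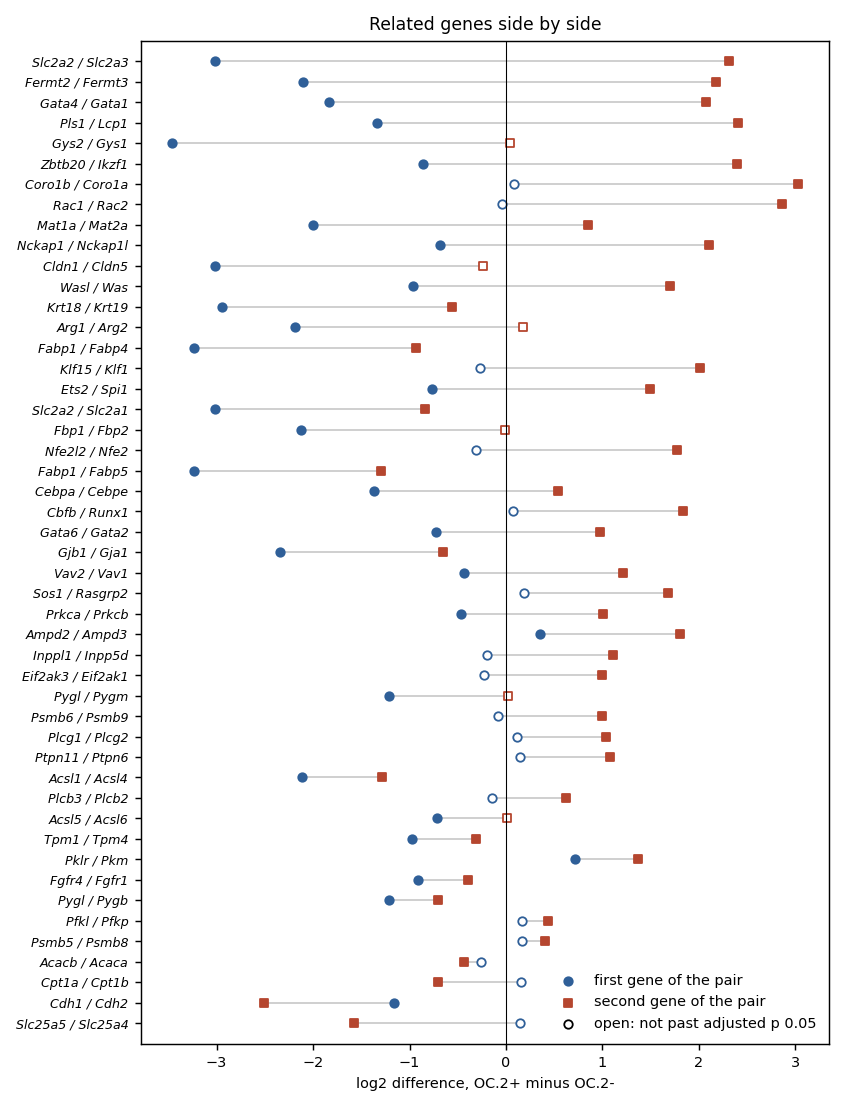
Log2 difference, OC.2+ minus OC.2- (horizontal axis), of the 48 pairs of genes set side by side, with the first gene as a circle, the second as a square and open symbols for genes not past limma adjusted p 0.05. The pair furthest apart is Slc2a2 and Slc2a3, at -3.02 and 2.31, and Slc25a4, at -1.58, lies below its partner Slc25a5.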

How the data were processed

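RNA from freshly isolated cells (150 ng per array, mirVana, per the labels' protocols) was hybridised to Affymetrix Rat Gene ST arrays. The authors deposited a table of normalised intensity on a linear scale, 28826 rows by 9 arrays. Partek 6.6 and RMA are named, with no role or order, per the submitters' processing notes, and no annotation or build is named there. Of the rows, 15209 name 1 gene, 306 several and 13311 none in the platform annotation. For the 494 genes with several probe sets the one with the highest mean log2 intensity over all 9 arrays was taken, leaving 14497 genes. Of the single-gene rows, 15178 were found in the RefSeq table for GRCr8 and 0 were renamed. Log2 values were fitted with limma 3.58.1 (R 4.3.3, lmFit and eBayes, a mean for each of 3 groups over 9 arrays, 6 residual degrees of freedom). Tests were 2-sided with Benjamini-Hochberg adjustment over all genes and a threshold of 0.05, and each fold is 2 to the power of the log2 difference. The median standard error of a difference was 0.095, precision is limited by the number of arrays, while a single probe set gives no detection call. Errors written ± are standard errors unless marked SD. The fit was tested on simulated data.

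The lists, the pairs and the motifs were chosen with earlier results of these data known, and 3268 of 3855 list entries matched a gene. Named genes are the 15 highest and the 15 lowest outside the blood, plasma protein and cell cycle lists, the most changed and the brightest uncalled members of each list, the pairs, and the markers. Other genes were added after their values were seen. Same-numbered arrays of the fetal groups had correlations of deviations of 0.047, -0.153 and -0.160, and differently numbered arrays -0.105 to 0.204. With 3 arrays per group these values cannot tell whether same-numbered preparations shared a source. The main fit treated the arrays as unpaired. The alternatives tried were other scalings (quantile, median centring and cyclic loess), filters on dim genes, probe set means, other variance and weight options, the fetal arrays alone, a replicate block, all rows of the table, a stricter threshold and leaving out each array.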

Additional observations from a re-analysis of the deposited data

How the results depend on the processing

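The numbers of genes higher, lower, at least 2-fold higher and at least 2-fold lower in OC.2+ cells stayed within 1.5 times their values under every alternative run. Leaving out 1 array at a time gave 2620 to 2963, 2373 to 2698, 526 to 565 and 923 to 1018. With the replicate number as a replicate block, a pairing the labels do not state, they were 2843, 2573, 535 and 961. At an adjusted p of 0.01 they were 2354, 2224, 534 and 960. Of the called genes 52.8% were higher as deposited, 55.6% with median centring, 56.0% with quantile scaling and 48.2% with cyclic loess. With only genes above log2 intensity 7 on at least 3 arrays, fewer members were tested and counts of some receptor and exchange factor groups fell by more than 1.5 times. The cytoplasmic actin gene Actg1, -0.05 and not called, turned to 0.34 under cyclic loess. Vim, Slc25a5, Canx and Eef1a1, not called as deposited, passed the threshold after cyclic loess, at 0.40, 0.54, 0.48 and 0.78. Canx passed it with quantile scaling too, at 0.26. The cause was not tested. Gnpat missed the threshold after cyclic loess, at 0.20. Genes near the lower end of intensity have understated folds.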

Other observations

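Of the 13311 rows that the annotation gives no gene symbol, 1207 were higher and 845 lower in the OC.2+ cells in a limma fit of all 28826 rows (adjusted p under 0.05), and 179 and 218 of these were at least 2-fold apart. Over all 28826 rows of that fit, 4098 were higher and 3379 lower, with 742 and 1203 at least 2-fold apart. Rows without a symbol were thus called less often than all rows together. They carry no gene name here and are given as counts.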
